A study of Arabidopsis thaliana with 6 samples.

Results

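Of the 35635 probes on the array that are not controls, 6066 are named by a position in the Arabidopsis thaliana genome instead of a gene, as a chromosome, a strand, a start and an end. These features were taken by the form of their name alone, which uses no measured value. Each has 1 probe and a name of its own. Another 117 names begin with a chromosome but join several names, and these were not taken. The remaining 29569 probes serve below only as a comparison.

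Many plant genomes hold short open reading frames in stretches that carry no annotated gene. Some of them are transcribed and some encode small peptides, while many are chance runs of codons that no transcript covers. Custom arrays place probes in such stretches to ask which are transcribed, and a signal above background says that RNA matching the probe was in the sample, not that a peptide was made.

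RNA came from whole seedlings, 14 days after sowing, grown on MS medium under 14 h of light and 10 h of darkness. In 3 samples the plants were transgenic and overexpressed sORF2146 (sORF2146ox), and in the other 3 they carried the empty pMDC32 vector as the control. The series' design text calls the samples of a group biological replicates, and the labels give no number of transgenic lines, no promoter for sORF2146 and no pooling of plants. Labelling with Cy3 started from 200 ng of RNA, and the cRNA of each sample was hybridised to 1 one-colour Agilent array. All sORF2146ox arrays were on 1 slide and all control arrays on another, so an effect of the slide and one of the group cannot be told apart.

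The arrays were alike in the share of probes above background and in saturation. The scanner software called 65.3% to 68.8% of probes well above background, and no spot was saturated. The 75th percentile of the processed signal, the scanner software's background-subtracted intensity, was 817 to 997 in sORF2146ox and 1098 to 1170 in the control. All 4 leaf markers and all 4 root markers measured were well above background on the 6 arrays, as the seedling label requires. The seed protein gene EM1 was above background on the 3 control arrays only, with signals of 2036, 327 and 24.8, against at most 2.05 in sORF2146ox. Of the other seed genes, GEA6 was above background on all 6 arrays and CRU3 and CRA1 on none. Of the flower genes, AP1 was above background on no array, AG on 2 control arrays, AP3 on 3 control and 2 sORF2146ox arrays and SEP3 on all 6.

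The names give lengths of 93 to 300 bases, with a median of 126 and quartiles of 105 and 159. All 6066 lengths are multiples of 3, from 31 to 100 triplets, which is the form of an open reading frame. What the features were designed to represent is not stated in the sources used here. The plus strand holds 3081 of them and the minus strand 2985. Chromosome 1 has 1416, chromosome 2 has 1205, chromosome 3 has 1184, chromosome 4 has 967 and chromosome 5 has 1294. Positions of 349 features overlap that of another feature, in 181 pairs of which 83 lie on the same strand, so these features share sequence.

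The file headers name the build ath1:Jan2004, while the gene table used for names is RefSeq's for TAIR10.1. With positions taken as they are, 19.4% of the features overlapped a protein-coding gene of that table. Shifting every position by 1000 bases either way raised this to 39.8% and 39.9%, and a shift of 2000 bases raised it to 47.8% or 48.0%. Of 21 joined names that pair a position with 1 locus, 14 overlapped that locus. The table was therefore used to say which genes lie at or beside a feature, with none of its coordinates, and the annotation of single features may be off where the builds differ. The table gives no strand for its genes, so whether a feature lies on the strand of its gene is not reported.

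Few of the position-named features were called above background by the scanner software. A feature counts as detected when the software called it well above background on every array of sORF2146ox, of the control or of both. This held for 706 of 6066 (11.6%), against 22817 of 29569 other probes (77.2%). No array called 4769 of the features above background, and 591 were above background on at least 1 array without being detected. The median processed signal over all 6066 features was 1.82 to 2.16 across the arrays, close to the medians of the negative control spots, which were 1.69 to 1.97. The share depends on the criterion: against the 95th percentile of the negative control spots of the same array, 37.0% to 45.7% of the features lay above it, and 85.3% to 87.9% of the other probes did.

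On single arrays, 915, 699 and 695 features were well above background in sORF2146ox (15.1%, 11.52% and 11.46%). In the control, 1114, 806 and 790 were (18.4%, 13.3% and 13.0%). Replicate 1 was the highest of its group on both sides, and the groups overlapped, since sORF2146ox replicate 1 lay above control replicates 2 and 3. For the other probes the shares were 76.3% to 77.2% in sORF2146ox and 78.6% to 79.1% in the control, with no overlap. Of the detected features, 568 were so on all 6 arrays. Another 98 were detected through the control alone and 40 through sORF2146ox alone. On 3 control arrays and no sORF2146ox array there were 29 features, and on 3 sORF2146ox arrays and no control array there was 1.

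Detection differed little with length and strand and more with the annotation at the same position. Among features of up to 100 bases 10.5% were detected, and the shares were 11.2% from there to 150 bases, 12.5% from there to 200 and 14.0% above 200. The plus strand had 343 detected features (11.1%) and the minus strand 363 (12.2%). Where no annotated gene overlaps, 345 of 4340 features were detected (7.95%). Where a protein-coding gene overlaps, 252 of 1177 were (21.4%), and where only another kind of annotated gene does, 109 of 549 (19.9%). Among features with no overlapping gene, the distance to the nearest gene made little difference: the share was 8.67% within 200 bases and 7.73% beyond 2000 bases.

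**Figure D1:**
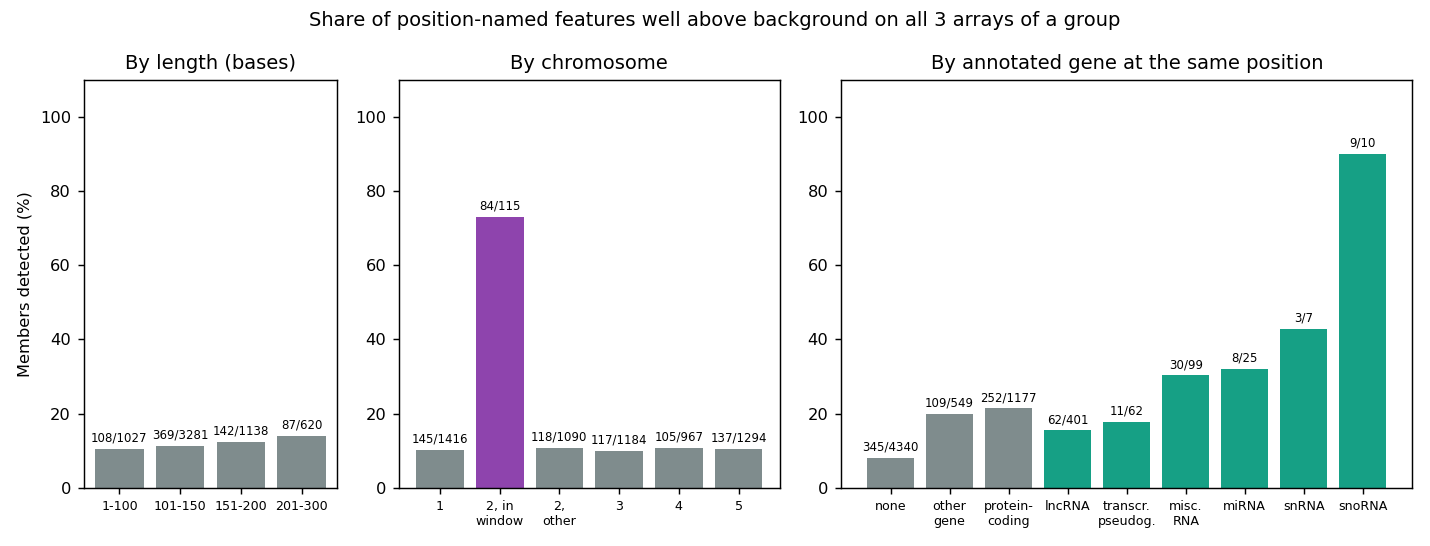
Share of position-named features (%) that were detected, by length, by chromosome and by the annotated gene at the same position, with the number detected over the number of features above each bar. The window on chromosome 2 holds 84 detected of 115, and snoRNA genes 9 of 10, while features that overlap no gene reach 345 of 4340.

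Features at snoRNA genes were detected most often. Small nucleolar RNAs, which guide the modification of ribosomal RNA, had 9 of 10 features detected. Spliceosomal snRNAs had 3 of 7, and miRNA genes had 8 of 25, at MIR159b, MIR163, MIR169c, MIR319b, MIR390b, MIR413, MIR447b and MIR8168. Of 401 features at long non-coding RNA genes 62 were detected, at genes of the class misc_RNA 30 of 99, and at other non-coding RNA genes 12 of 32. The probes measure whatever RNA matches them in the labelled cRNA, so a mature miRNA was not measured as such.

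None of these 20 small RNA features passed the test between groups, a set too small to tell from the 5.17% called among all tested probes. Their log2 differences ran from -0.68 to 0.71. The feature at SNOR108, a snoRNA gene (chr5:16598809-16598904, plus strand), read 1611, 1556 and 1586 in sORF2146ox and 1349, 1691 and 2090 in the control. Its groups overlapped. The one at MIR413 (chr1:23058133-23058234, plus strand) read 202, 143 and 154 in sORF2146ox and 304, 274 and 241 in the control. Those groups did not overlap, and the difference of -0.41 (SE 0.11, n = 3 per group) had a limma adjusted p of 0.081.

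One stretch of chromosome 2 stood apart in detection. In the window from 3200000 to 3499999, chosen after the values were seen, 84 of 115 features were detected (73.0%). Elsewhere on the chromosome 118 of 1090 were (10.8%), and over the rest of the genome with that remainder 622 of 5951 (10.5%). By bins of 100000 bases, 25 of 39, 35 of 42 and 24 of 34 were detected within it. The next bins held 5 of 13 and 1 of 9, and the bin before held 0 of 5. Over bins of 1000000 bases across the genome, the bin that holds this window reached 50.5% and the next highest bin, on chromosome 4, 28.2%.

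The Columbia reference carries a large insertion of mitochondrial DNA near the centromere of chromosome 2, and the series title calls sORF2146 mitochondria-originating. Whether the window coincides with that insertion was not tested, and RNA from a mitochondrial and a nuclear copy cannot be told apart by a probe that matches both. In the window, 74 features were above background on all 6 arrays. The median processed signal of its detected features was 39.8, against 26.8 for detected features elsewhere. Of the 84, 3 passed the test between groups, a share no higher than the 6.37% of all detected features and 5.17% of all tested probes. Of these 3, 1, described next, had the largest change of all the position-named features. The other 83 had log2 differences from -0.58 to 0.65, with a median of 0.01 and 42 of them positive.

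The feature with the largest change was chr2:3315207-3315407 on the minus strand, 67 triplets long. Its processed signal was 67906, 57109 and 52266 in sORF2146ox and 247, 226 and 209.7 in the control. Every sORF2146ox array was far above every control array, with little spread in either group. The log2 difference was 8.33 (SE 0.11, n = 3 per group, limma adjusted p = 5.7e-06), or 321-fold. It passed under all 17 alternative settings, with differences from 7.74 to 8.42. Among all 23523 probes tested this rise ranked 2, after one of 9.24, and the next was 5.91. The second largest rise among the position-named features was 2.14.

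No annotated gene of the table overlaps that feature, which lies between AT2G00460 and AT2G07784. None of the features beside it passed the test. The nearest one, chr2:3315633-3315782 on the same strand and 225 bases away, read 223, 204 and 196 in sORF2146ox and 219, 227 and 237 in the control. Its difference was 0.18 (SE 0.10, limma adjusted p = 0.26). At 538 and 808 bases on the plus strand the differences were 0.17 (adjusted p = 0.43) and -0.13 (adjusted p = 0.51). On the other side, minus-strand features 7388 and 8309 bases away differed by 0.33 (adjusted p = 0.32) and 0.03 (adjusted p = 0.89). The labels give no position or sequence for sORF2146, and whether this probe detects the overexpressed frame was not tested.

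Across all detected features, 45 of 706 passed the test (6.37%), at a limma adjusted p below 0.05 over all 23523 probes tested. The share called among all tested probes was 5.17%, so the position-named features were called at close to the background rate. There were 21 higher in sORF2146ox, where the background was 2.51%, and 24 lower, where it was 2.66%. This split depends on the scaling and on the background correction with its offset. It was 28 and 13 after quantile normalization and with the authors' deposited table. Under background subtraction with an offset of 50 added to the signal, it was 29 and 6. On the level relative to the 75th percentile of each array, the groups did not overlap for any of the 45. Over all 706, groups did not overlap for 202 (28.6%), against 40.6% of all tested probes, and the unadjusted p was below 0.05 for 185 (26.2%), against 30.8%. The median difference was 0.04 for the features and 0.03 for all tested probes.

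The calls were sensitive to single arrays, and so were those over all 23523 probes tested, of which all 6 arrays called 1215. Without any 1 of the sORF2146ox arrays, 5 or 6 features were called, and 46 to 50 of all probes. Without control replicate 2, 3 features and 34 of all probes were called. Leaving out control replicate 1 or 3 left 37 or 35 features and 1206 or 1079 of all probes. With the replicate number as a block, 2 features and 14 of all probes were called. The 2 features, 1 in each direction, were chr2:3315207-3315407 and chr2:7632902-7633027.

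Of the 45, 32 were among the 568 features above background on all 6 arrays (19 higher, 13 lower). Another 13 came from the 138 that entered the test through 1 group only, 2 of them higher and 11 lower, a direction that the way they entered favours. A log2 difference of at least 1 in size was found for 17 of the 45, 4 higher and 13 lower. Over the whole detected set 7 features had a difference of 1 or more and 25 of -1 or less, where the background shares were 1.38% and 4.84%. On the plus strand 12 were higher and 7 lower (5.54% of those detected there), and on the minus strand 9 were higher and 17 lower (7.16%). Chromosome 1 had 8 higher and 5 lower (8.97%), chromosome 2 had 8 and 4 (5.94%), chromosome 3 had 0 and 7 (5.98%), chromosome 4 had 3 and 2 (4.76%) and chromosome 5 had 2 and 6 (5.84%). The shares for chromosomes 2 to 5 lie near the background of all probes. By length, 8 of 108 detected features were called up to 100 bases, 21 of 369 from there to 150, 8 of 142 from there to 200 and 8 of 87 above 200.

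**Figure D2:**
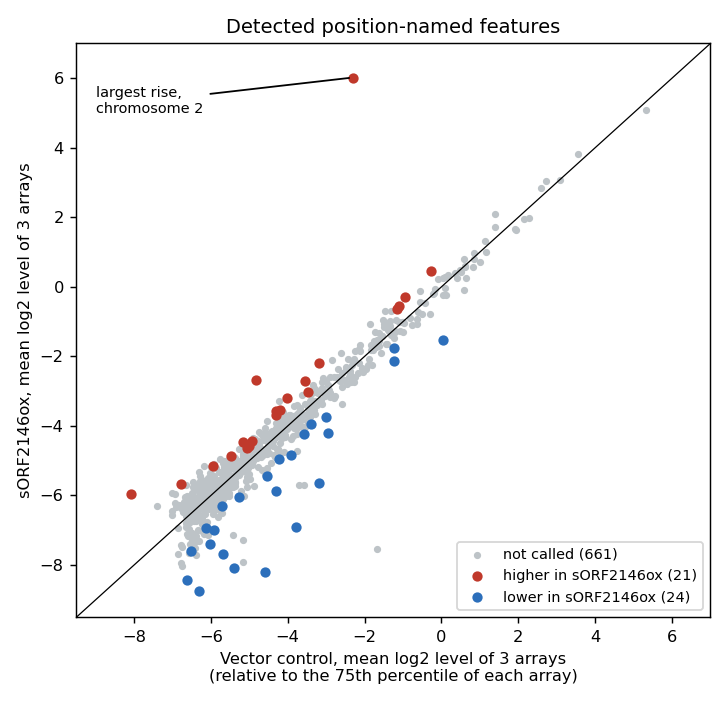
Mean log2 level of the 706 detected position-named features over 3 control arrays (x axis) and 3 sORF2146ox arrays (y axis), relative to the 75th percentile of each array, with the line of equal level. The 21 features called higher and the 24 called lower are coloured, and the feature with the rise of 8.33 stands far above the rest.

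After chr2:3315207-3315407, the largest measured rise was at chr1:19252203-19252301 (plus strand), a 99-base feature that overlaps no gene and lies between AT1G51840 and AT1G51850. It read 175, 113 and 140.3 in sORF2146ox and 35.9, 38.3 and 45.0 in the control. The difference was 2.14 (SE 0.15, n = 3 per group, limma adjusted p = 0.0079), and it was called under 14 of 17 alternatives. The probes of AT1G51840 and AT1G51850 differed by 0.61 (adjusted p = 0.11) and 0.62 (adjusted p = 0.22).

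A feature at the non-coding gene AT1G05897 (chr1:8650754-8651026, minus strand) was the 1 feature above background on every sORF2146ox array and on no control array. Signals were 11.7, 16.3 and 16.1 in sORF2146ox and 3.27, 3.95 and 5.65 in the control. Where a feature was called above background on none of the arrays of 1 group, only a bound holds, in which each dim array takes the higher of its own signal and the lowest signal called above background on that array. The rise was at least 2.12-fold (limma adjusted p = 0.030).

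The other 9 of the 12 largest rises lay between 0.65 and 1.103 on the log2 scale. Each was called under 4 to 10 of 17 alternatives. Of these 9, chr1:12184641-12184754 (plus strand) read 18.9, 15.6 and 19.3 in sORF2146ox and 10.1, 8.55 and 12.7 in the control. It rose by 1.103 (SE 0.16, limma adjusted p = 0.034), with 2 of 3 control arrays above background. Brighter was chr1:16377555-16377758 (plus strand), at 192, 173 and 231 against 124, 113 and 137, a rise of 0.98 (SE 0.14, adjusted p = 0.031). Neither overlaps an annotated gene.

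The feature chr2:13736672-13736836 (minus strand) had the tightest groups of these, at 155, 119 and 145 in sORF2146ox and 96.7, 96.0 and 95.4 in the control. It rose by 0.84 (SE 0.07, limma adjusted p = 0.014). At the non-coding gene AT2G09555, chr2:18498233-18498406 (minus strand) rose by 0.82 (adjusted p = 0.046), and at AT1G26218, chr1:9071954-9072163 (plus strand) rose by 0.68 (adjusted p = 0.048). Both of these genes are annotated as long non-coding RNAs. The feature at AT1G26218 was called under 4 of 17 alternatives, and its processed signals overlapped between groups.

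Several of the risers lie at protein-coding genes. The feature chr1:8544997-8545134 (minus strand), at AT1G24148, read 1424, 1086 and 1271 in sORF2146ox and 1087, 889.6 and 846 in the control. On the level relative to the 75th percentile, which corrects for the brighter control arrays, the groups did not overlap and the rise was 0.74 (SE 0.10, limma adjusted p = 0.028). The gene's own probe rose by 0.68 (adjusted p = 0.047). At AT1G35255, chr1:12936185-12936367 (plus strand) rose by 0.78 (adjusted p = 0.016). At TAPX, the thylakoid ascorbate peroxidase, chr1:29120639-29120740 (plus strand) rose by 0.73 (adjusted p = 0.041), while the probe of TAPX differed by 0.54 (adjusted p = 0.051).

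The 2 other called features of the chromosome 2 window lie 133 bases apart on the plus strand, both in the misc_RNA gene AT2G05325. At chr2:3462570-3462680 signals were 818, 670.3 and 756 in sORF2146ox and 557, 577 and 636 in the control, and the rise was 0.65 (SE 0.09, limma adjusted p = 0.032). At chr2:3462311-3462436 they were 622, 557 and 569 against 485, 501.3 and 541, and the rise was 0.51 (SE 0.10, adjusted p = 0.047). Of 17 alternatives, 9 called the first and 7 the second. Features of 1 transcript are not independent of each other.

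**Figure D3:**
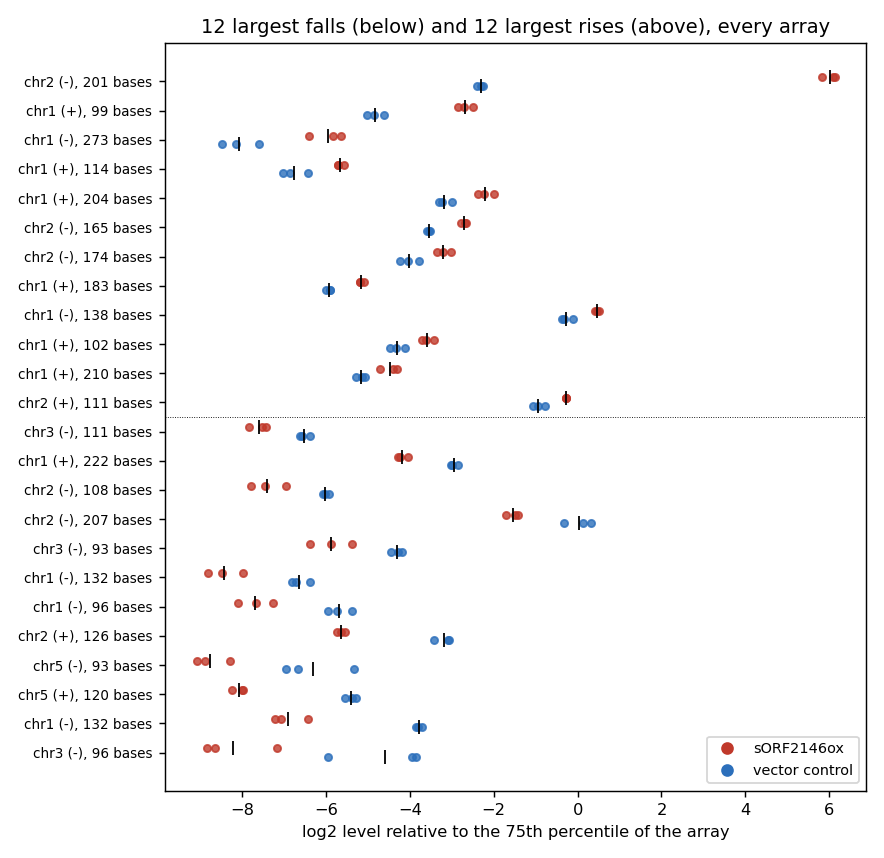
Log2 level on every array, relative to the 75th percentile of the array, of the 12 called position-named features with the largest fall (below the dotted line) and the 12 with the largest rise (above it), labelled by chromosome, strand and length. Points are single arrays, 3 per group, and black ticks are group means, and the groups do not overlap in any line.

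Most of the large falls were of dim features. The fall measured most firmly was at chr2:7632902-7633027 (plus strand), which overlaps no gene and lies between AT2G17540 and AT2G06995. It read 18.7, 16.4 and 19.7 in sORF2146ox and 109, 132 and 130.1 in the control. All 6 arrays were above background. The difference was -2.44 (SE 0.12, n = 3 per group, limma adjusted p = 0.0028), and it was called under 16 of 17 alternatives. The probe of AT2G17540 differed by 0.15 (adjusted p = 0.39).

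A pair of features in AT1G43605, 412 bases apart on the minus strand, fell together. Both features overlap a long non-coding RNA gene as well, and features in 1 gene are not independent of each other. At chr1:16416733-16416864 signals were 11.47, 6.03 and 6.14 in sORF2146ox and 80.8, 79.5 and 84.0 in the control. With 1 sORF2146ox array above background the difference was -3.12 (SE 0.21, limma adjusted p = 0.0079), called under 14 of 17 alternatives. At chr1:16417277-16417372 they were 6.44, 2.99 and 4.47 against 19.03, 21.0 and 26.4, at least 2.12-fold lower in sORF2146ox (adjusted p = 0.026).

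A further feature with no overlapping gene, chr5:25195973-25196092 (plus strand), read 3.89, 2.69 and 3.63 in sORF2146ox and 28.1, 28.4 and 23.5 in the control. It was above background on no sORF2146ox array and was at least 2.56-fold lower (limma adjusted p = 0.0018). It was called under 14 of 17 alternatives. A fall at the misc_RNA gene AT3G00850 (chr3:18020511-18020606, minus strand), was far less firm. It read 2.49, 1.80 and 6.37 in sORF2146ox and 80.8, 18.0 and 70.7 in the control. It was at least 4.52-fold lower (adjusted p = 0.049), and 2 of 17 alternatives called it.

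Other falls were of features above background on all 6 arrays. At the misc_RNA gene AT2G00880, chr2:15027224-15027430 (minus strand) read 371, 251 and 327 in sORF2146ox and 1458, 1213 and 876 in the control, a fall of 1.58 on the log2 scale (SE 0.18, limma adjusted p = 0.026). With no gene at its position, chr1:7040661-7040882 (plus strand) read 50.8, 49.6 and 48.3 against 147, 139 and 152. It fell by 1.24 on the log2 scale (SE 0.10, adjusted p = 0.013). Its flanking genes, SMT2 of sterol synthesis and the plastocyanin gene DRT112, differed by 0.22 (adjusted p = 0.47) and -0.12 (adjusted p = 0.40). Finally chr3:10128920-10129012 (minus strand) read 11.9, 19.6 and 15.5 against 64.6, 51.0 and 56.1 and fell by 1.58 (SE 0.26, adjusted p = 0.039).

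The remaining 4 of the 12 largest falls were above background on no sORF2146ox array. The bounds were at least 1.68-fold lower for chr2:12670796-12670903 (minus strand, limma adjusted p = 0.035), 1.37-fold for chr5:3751811-3751903 (minus strand, adjusted p = 0.047), 1.18-fold for chr3:21971892-21972002 (minus strand, adjusted p = 0.026) and 1.09-fold for chr1:13889242-13889373 (minus strand, adjusted p = 0.028). The first lies in THIC, a gene of thiamine synthesis whose own probe differed by -0.30 (adjusted p = 0.60). All 4 had fitted differences above 0 under both other background corrections, which add an offset of 50 to the signal. Under background subtraction with that offset they were 0.05, 0.0029, 0.11 and 0.10. Of the 45 calls, 8 had the opposite sign under that setting, so the direction of part of the calls depends on the background correction and its offset.

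A further pair, above background on the 3 control arrays and on no sORF2146ox array, missed the threshold. In the potassium channel gene GORK, chr5:14889303-14889482 (plus strand) read 2.24, 8.20 and 6.36 in sORF2146ox and 1503, 644 and 46.0 in the control. The bound was at least 34.0-fold lower, with a limma adjusted p of 0.062 as the control arrays spread widely, and the probe of GORK differed by -0.03 (adjusted p = 0.90). The other, chr5:12182108-12182290 (plus strand), read 9.26, 3.07 and 1.83 against 33.3, 38.9 and 23.8, at least 2.98-fold lower (adjusted p = 0.051).

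Closest on chromosome 4 were 2 called features on the plus strand, 38400 bases apart in a region of disease resistance genes. At AT4G16892, a non-coding gene beside SNC1, chr4:9506514-9506630 rose by 0.50 (SE 0.09, limma adjusted p = 0.043). At AT4G16957, beside RPP5, chr4:9545031-9545147 rose by 0.45 (SE 0.08, adjusted p = 0.043). On the processed signal, before scaling, the groups overlapped for both features. Of 17 alternatives, 6 called the first and 5 the second. The probes of SNC1 and RPP5 differed by -0.27 (adjusted p = 0.26) and 0.00 (adjusted p = 1.00). The remaining 18 called features, outside the rules for features described one by one, comprise 6 rises of 0.42 to 0.65 and 12 falls, with differences from -1.07 to -0.54.

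Some called features lie in a gene that has a probe of its own. Of 9 called features that overlap a gene with a tested probe of its own, 8 had the same sign and 4 had a gene probe that was called too, at AT1G24148, TLL1, AT3G06778 and AT5G01940. The feature in TLL1, a lipase-like gene (chr1:17128786-17128908, plus strand), fell by 0.90 on the log2 scale and the gene's probe by 1.40. In AT3G06470, which goes the other way, the feature (chr3:1983934-1984029, minus strand) fell by 0.91 and the gene's probe differed by 0.20 (limma adjusted p = 0.19).

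Over all 197 detected features with such a gene, 119 had the same sign as the gene's probe, and the correlation of the feature's and the gene's difference was r = 0.33 and rho = 0.37. Features and genes here share arrays, and some share transcripts. For features that overlap no gene, the correlation with the nearest gene was r = 0.12 and rho = 0.16 over 112 pairs, and with the farther flanking gene r = 0.16 and rho = 0.28 over 108 pairs. In no pair with the nearest gene were both called. Only 11 of those features and 10 of those genes were called over the 112 pairs, too few for the absence of joint calls to be informative.

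The detected features were dim and few were bright. Their median processed signal was 23.4 to 44.1 across arrays, against 475 to 693 for other detected probes. The highest of the 6 signals was below 100 for 495 of the 706 and reached 1000 for 41. On the log2 scale, the SD between replicates had a median of 0.21 in sORF2146ox and 0.22 in the control. Other detected probes had 0.12 and 0.17. For the middle 352 features by level the medians were 0.22 and 0.22, and other probes of the same level range had 0.20 and 0.29.

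By mean level, the brightest feature was chr5:4791534-4791632 (plus strand, 99 bases), with no gene at its position. It read 38175, 23478 and 32946 in sORF2146ox and 49428, 44466 and 41174 in the control. Relative to the 75th percentile the groups overlapped, and the difference was -0.22 (SE 0.13, limma adjusted p = 0.29). The next, chr2:3276625-3276822 (minus strand), lies at AT2G07623 in the chromosome 2 window and read 12061 to 14598 in sORF2146ox and 12592 to 13788 in the control. It differed by 0.26 (SE 0.10, adjusted p = 0.14). A feature at the U6 snRNA gene U6.5 (chr4:15965151-15965261, minus strand) read 7411 to 8043 against 8588 to 11791, a difference of -0.01 (adjusted p = 0.98).

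A set of 3 features on chromosome 3, each of 36 triplets, was alike on every array. They are chr3:13814992-13815099 and chr3:13839742-13839849 on the minus strand and chr3:14218167-14218274 on the plus strand. The first read 4679, 3197 and 2796 in sORF2146ox and 14437, 3477 and 2428 in the control. All 3 were several times higher on control replicate 1 than on the other control arrays, and their levels correlated at r = 0.998 pairwise over the 6 arrays. Their lengths are equal, and whether their sequences are alike was not tested. None was called, with differences of -0.20, -0.25 and -0.30.

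Of the 10 brightest, 1 was called, chr2:3315207-3315407 with its rise of 8.33. The rest of them were not. At AT1G06120, chr1:1855822-1855923 (minus strand) differed by 0.32 (limma adjusted p = 0.44). Beside the chromosome 2 window, chr2:3532681-3532878 (minus strand) differed by 0.25 (adjusted p = 0.13), and chr5:11315722-11315889 (plus strand) by -0.30 (adjusted p = 0.45).

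The longest detected features had 294, 291 and 285 bases, and the shortest had 93. Several features are tied at 93 bases, and the first 3 of them by position are given here. Of the others, the falls at chr3:10128920-10129012 and chr5:3751811-3751903 described above and one at chr5:12995939-12996031 (minus strand), with a difference of -0.78, were called. Their differences were 0.25, 0.47 and 0.19 for the longest, chr2:16175877-16176170 (plus strand), chr4:5095591-5095881 (minus strand) and chr2:3499682-3499966 (minus strand). For the shortest they were 0.17, 0.34 and 0.86, at chr1:11779214-11779306 (plus strand), chr1:12040754-12040846 (minus strand) and chr1:12384268-12384360 (minus strand). None of these 6 was called, and their lowest limma adjusted p was 0.073.

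A set of features was high on replicate 1 of both groups. A pattern chosen after the values were seen, a level on replicate 1 at least 1 log2 unit above both other arrays in each group, held for 46 of 706 detected features (6.52%) and for 39 of 22817 other detected probes (0.171%). The same pattern for replicate 2 or 3, or downward, held for none of the features. Of the 46, 40 overlap no annotated gene, 5 overlap a gene that is not protein-coding and 1 overlaps a protein-coding gene. Over all 706 detected features these classes hold 345, 109 and 252. Chromosome 4 holds 15 of the 46, among 105 features detected there, and chromosome 1 holds 11, among 145.

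Their median signals were 50.1, 16.6 and 16.3 in sORF2146ox and 72.6, 14.5 and 11.9 in the control. The median excess of replicate 1 was 1.38 log2 units in sORF2146ox and 2.41 in the control. The brightest, chr4:4391804-4391902 (plus strand), read 484, 198 and 184 in sORF2146ox and 739.7, 150.2 and 148 in the control. Next were chr1:16433803-16433907 (minus strand), at 475, 139 and 150.3 against 707, 133 and 96.3, and chr4:3148437-3148532 (plus strand), at 315, 108 and 92.7 against 451, 83.5 and 61.6. None of the 46 was called, which the choice made likely, as the pattern requires a wide spread within both groups.

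Marker genes also differed on replicate 1. The flower genes SEP3, AP3 and AG were lowest on replicate 1 of both groups, AG without being above background in sORF2146ox. The flower gene AP1, above background on no array, went the other way and was highest on replicate 1 of both groups. It read 5.15 against 2.03 and 1.65 in sORF2146ox and 7.90 against 7.12 and 5.12 in the control. SEP3 read 109.7 against 305 and 292 in sORF2146ox and 549 against 1179.9 and 1078 in the control. The root genes RHS19, EXT10 and CASP1 were lowest on control replicate 1, as was PYK10, with CASP1 at 1246 against 4445 and 5151 on the other control arrays. Of the seed genes above background on the control, EM1 was highest on control replicate 1 and GEA6 on control replicate 2, at 67.0 against 58.7. On sORF2146ox replicate 1, CASP1 read 5371 against 4339 and 4297, and none of the 4 root genes had its lowest level on that array. The part of tissue makeup, labelling or hybridisation in the replicate 1 pattern was not tested. Across all 706 features, the deviations of same-numbered arrays from their group means correlated at 0.58, 0.35 and 0.41. Arrays numbered 2 and 3 also correlated across groups, at 0.25 and 0.26. Replicate 1 correlated below 0 with every differently numbered array of the other group. Deviations within a group cancel out by construction, so all these correlations depend on each other and are not separate observations. For same-numbered arrays across all tested probes the values were -0.09, -0.00 and -0.02. Leaving out replicate 1 of both groups, with 2 arrays per group left, called 5 features, all of them among the 45, and 81 of all tested probes.

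**Figure D4:**
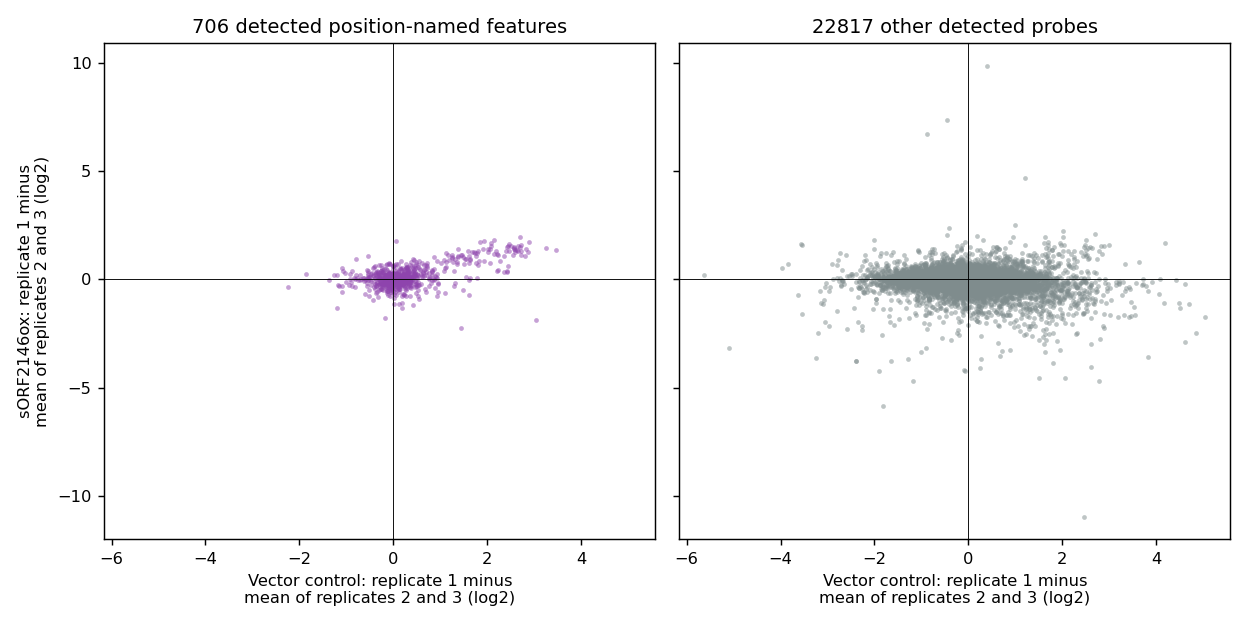
Level on replicate 1 minus the mean of replicates 2 and 3 (log2) in the control (x axis) and in sORF2146ox (y axis), for the 706 detected position-named features and for 22817 other detected probes. A tail of features runs up and to the right, in which replicate 1 is high in both groups, as it is for the 46 features with medians of 2.41 and 1.38. Of the other probes, 39 follow that pattern.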

How the data were processed

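Values are spot intensity from the deposited scanner files of 6 arrays. Per the file headers, these were written by Agilent Feature Extraction 11.5.1.1. Its processed signal had the background subtracted and spatial trends removed on each array separately. Its flags for background and outliers, other values of 0 or 1, were used as deposited. A deposited table of intensity for the whole series, with no stated method, had the same sorted values in each column for 96.3% of ranks (relative tolerance 1e-06) and was taken as quantile normalized.

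From each array's log2 processed signal, the 75th percentile over 35635 probes was subtracted. Outlier spots were set to missing, 12 in all and 3 among the position-named features. The test covered the 23523 probes that met the rule for detection. It used lmFit and eBayes (limma 3.58.1, R 4.3.3), with p-values adjusted by Benjamini-Hochberg over all of them and a threshold of 0.05. Differences are sORF2146ox minus control. The test was checked on simulated data with independent noise between arrays, so the check does not cover effects of slide or replicate number. Nothing ties the replicates of a group to separate lines, so p-values measure the spread between these samples. Precision is limited by there being 3 arrays per group.

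The members and lists were chosen with earlier results of these data known. Described one by one are the 12 largest rises and 12 largest falls among called features whose groups do not overlap, the 10 brightest, the 5 largest bounds on each side, the 3 longest and 3 shortest detected, and the 5 closest pairs of called features. Small RNA features, features in genes, the chromosome 2 window and its surroundings and the replicate 1 pattern were chosen after their values were seen. The planned normexp alternative used median signals, as the files used here hold no mean signals. Background subtraction also used median signals, and both alternatives added an offset of 50 to the signal. Same-numbered arrays are not stated to share a batch. No sequences were used.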

Additional observations from a re-analysis of the deposited data

How the results depend on the processing

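The count of 45 calls (21 higher, 24 lower) was within 1.5 times under 1 probe per name (45), the 75th percentile over detected probes (38), quantile normalization (41), the authors' deposited table (41), background subtraction with an offset of 50 (35), trended robust variance (36), detection on at least 3 of 6 arrays (40) and no filter on dim probes (32). Like counts were not always the same features: 12 of the 32 without the filter, 21 of the 35 under background subtraction with the offset and 34 of the 41 after quantile normalization were among the 45. No filter gave 13 higher. Lower calls came to 13 under quantile normalization, 13 with the authors' deposited table and 6 under background subtraction with the offset. The split thus moved from 21 and 24 to 28 and 13 under either of the first 2 and to 29 and 6 under the last. Normexp, with the same offset, gave 1 call, higher, and 0 lower. Its fitted background was -155 and -158 on sORF2146ox replicate 1 and control replicate 2 but 14.7 to 18.0 on the others. The replicate block gave 2 calls, 1 higher and 1 lower, and 14 over all probes. Leaving out 1 array gave 3 to 37 calls, 1 to 19 higher and 2 to 18 lower, and 34 to 1206 over all probes. Leaving out replicate 1 of both groups, added after the data were seen, gave 5, of which 2 were higher and 3 lower. The share of features detected per array had a median of 13.2%, which became 41.5% against the 95th percentile of negative control spots. The median level over all features was higher in sORF2146ox by 0.26, by 0.24 with the percentile over detected probes and by 0.017 after quantile normalization. This median lies near the negative control spots, and before scaling it was 1.82 to 2.02 in sORF2146ox and 1.87 to 2.16 in the control. The 75th percentile subtracted was higher on the control arrays, so the 0.26 does not show more RNA at these features.

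Of 27 called features described, 1 was called under all 17 alternatives and 4 changed sign under at least 1. Under background subtraction and normexp, both with an offset of 50, these were 0.10 and 0.13 for chr1:13889242-13889373, 0.049 and 0.063 for chr2:12670796-12670903, 0.11 and 0.13 for chr3:21971892-21972002, and 0.0029 and 0.0099 for chr5:3751811-3751903. Features not called also changed sign. Without replicate 1 of both groups, chr3:13814992-13815099, chr3:13839742-13839849, chr3:14218167-14218274 and chr4:15965151-15965261 came to 0.40, 0.36, 0.38 and 0.15. Leaving out 1 array, the differences ran from -0.26 to 1.24 for chr1:12040754-12040846, -0.0057 to 0.63 for chr2:16175877-16176170, -0.70 to 0.54 for chr3:13814992-13815099, -0.76 to 0.48 for chr3:13839742-13839849, -0.82 to 0.51 for chr3:14218167-14218274, -0.076 to 1.31 for chr4:5095591-5095881, and from -0.076 to 0.12 for chr4:15965151-15965261. The causes were not tested.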
